A study of Mus musculus with 16 samples.

Results

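Adult Lgr5-positive intestinal stem cells were compared with small-intestinal epithelium of E14.5 mouse embryos (E, embryonic day) by the places that carry H3K27ac, the acetylation of lysine 27 of histone H3. The members are stretches of the genome whose mark was present on one side of this comparison only. The peak lists of 4 chromatin immunoprecipitation libraries, 2 of stem cells (ISC) and 2 of E14.5 epithelium, were merged wherever peaks overlapped or touched, which gave 65741 regions. A region was gained when both ISC libraries and neither E14.5 library had a peak in it, and lost in the reverse case. There were 6331 gained and 8852 lost regions, together 15183 or 23.1% of the merged regions. The 8 ChIP libraries of the series merge into 79482 regions. Since the rule is presence against absence in these 4 libraries, absence from the opposite group is part of the definition and not a result.

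The E14.5 libraries came from epithelial cells of embryonic small intestine, sorted as positive for EpCAM and negative for CD31, CD45 and the dead-cell dye DAPI. The ISC libraries came from crypt cells of male Lgr5EGFP-Cre-ERT mice of postnatal day 60, sorted for a high level of EGFP expressed from the Lgr5 locus. All mice were of mixed C57BL/6 CD1 strain, and genotype and sex are not given for the embryos. Age, the sort and the way the cells were freed from the tissue differed together and cannot be told apart, and any difference in genotype or sex would go with them. A sort for EpCAM takes the whole embryonic epithelium, whereas the EGFP gate takes a small part of the adult one. A region may carry more mark per cell or be marked in more of the cells, and peak lists cannot tell these apart. E12.5 epithelium, sorted like that of E14.5, and adult enterocytes of the same reporter line, gated by the same EpCAM, CD31, CD45 and DAPI criteria, served with 2 libraries each as groups that the rule did not use.

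Acetylation of lysine 27 is laid down by the coactivators CBP and p300 at active promoters and enhancers, and long uninterrupted stretches of it often lie over genes that define a cell's identity. At E14.5 the gut epithelium is still a proliferating layer in which villi only begin to form and crypts do not yet exist. In the adult, Lgr5-positive cells at the crypt base divide throughout life and give rise to all cells of the epithelium, including the enterocytes that absorb nutrients on the villus.

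The 4 libraries compared held 38.6 to 54.6 M ChIP tags and 35.3 to 37.5 M tags in their inputs. They had 44594 and 51824 peaks in ISC and 52363 and 49088 at E14.5. Peaks covered 51.2 Mb in ISC replicate 1 and 76.1 Mb in ISC replicate 2, against 65.1 and 56.9 Mb at E14.5. ISC replicate 2 thus stood apart by the length it covered, which bears on each count below.

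Regions in all 4 libraries were the most frequent kind, at 21876 or 33.3% of the merged regions. The gained regions were 9.63% and the lost regions 13.5% of all merged regions. The next most frequent pattern after the shared one was a peak in ISC replicate 2 alone, with 12700 regions, whereas ISC replicate 1 alone had 404. E14.5 replicate 1 alone had 6717 regions and replicate 2 alone 2096. A further 3624 regions had both E14.5 libraries and 1 ISC library, and in 3572 of these the ISC library was replicate 2. In the 3624 regions the 1 ISC library covered a median of 470 bp, and the smaller of the 2 E14.5 values had a median of 610.5 bp. Both ISC libraries and 1 E14.5 library held 1548 regions, with a median of 329 bp in the E14.5 library and 584 bp as the smaller of the 2 ISC values.

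**Figure D1:**
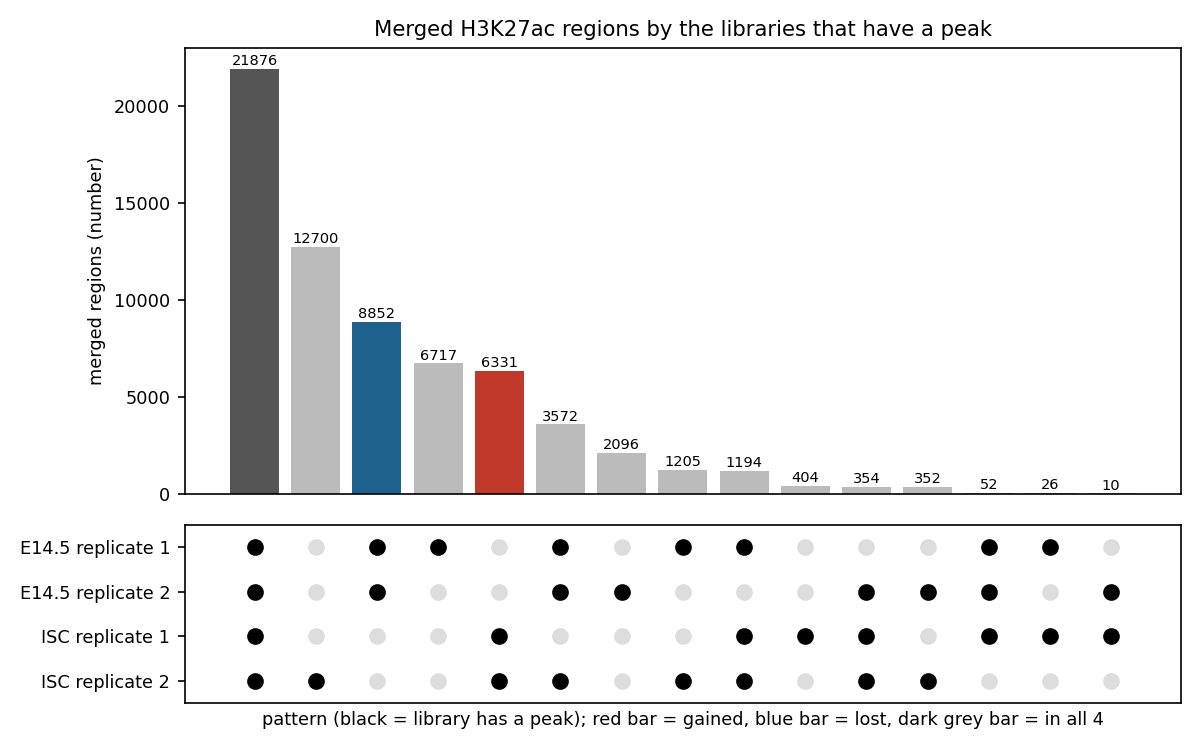
Number of merged regions (vertical axis) for each of the 15 combinations of libraries that have a peak, marked by black dots below each bar. The red bar (6331) is the gained and the blue bar (8852) the lost class; the bar for ISC replicate 2 alone (12700) exceeds both.

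More regions were lost than gained, 1.40 to 1. With peaks of a −log10 q of at least 10 the ratio was 1.07 (3840 lost, 3602 gained), and with equal numbers of peaks 1.16. It also depended on single libraries. Without ISC replicate 1 it turned to 0.460 lost regions per gained one (8905 lost, 19372 gained), and without ISC replicate 2 it was 1.12 (12891 lost, 11499 gained). Without E14.5 replicate 1, 13523 regions were lost, and without replicate 2, 16807 were lost (2.51 per gained region). By construction, dropping a library leaves one condition fewer to meet. The presence rule gives no test of a region, and a two-sided exact permutation test of 2 libraries against 2 cannot go below p = 0.333.

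Most members were short. The covered length of a gained region, taken as the smaller of its 2 ISC values, had a median of 503 bp and a 90th percentile of 1656 bp, and for lost regions these were 477 and 1486 bp. Only 403 gained regions (6.37%) and 456 lost regions (5.15%) reached 2000 bp. Ranked by the authors' −log10 q within each list, gained regions had their strongest peak at a median percentile of 30.7 in ISC replicate 1 and 51.5 in replicate 2. For lost regions the medians were 42.2 and 34.5 in E14.5 replicates 1 and 2. Regions in all 4 libraries had medians at the 72.2nd to 78.1st percentile. Gained regions held 9.74% and 10.6% of the covered length of the ISC libraries, and lost regions 12.1% and 11.9% of that of the E14.5 libraries.

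The longest members are described next by position on mm9, the build of all coordinates here. The deposited lists hold no gene names, and no annotation or genome of mm9 was used, so no gene, exon, intron or promoter is assigned to a region and no sequence is shown. For the same reason the labelled cell types could not be checked against marker genes, and markers of other cells that a sort may have passed were not examined.

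The longest lost regions were already covered over most of their length at E12.5. The longest of all lies on chromosome 7 from 149737507 to 149765255. It carried 27.5 kb of peaks in E14.5 replicate 1 and 27.1 kb in replicate 2, and no peak in ISC. The E12.5 libraries had 26.7 and 27.7 kb there, and enterocytes had none. Its peaks were also among the strongest, at the 97.1st and 98.2nd percentile of the authors' −log10 q within the 2 E14.5 lists. It was more than 2 times as long as any other gained or lost region named here. A second lost region on that chromosome, from 149843530 to 149852598, had 8.85 and 9.07 kb at E14.5, with 7.25 and 7.32 kb in the E12.5 libraries.

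The next 2 in length were of like size. On chromosome 10 from 44200092 to 44210783, the E14.5 libraries carried 10.6 and 10.7 kb, and the E12.5 libraries 8.19 and 10.6 kb. On chromosome 6 from 49168141 to 49178911, they carried 10.7 and 10.1 kb, and those of E12.5 had 10.5 and 10.7 kb. Neither had a peak in an adult library, and the embryonic values of E12.5 and E14.5 overlapped on chromosome 6.

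On chromosome 11 there were 2 of the 10 longest losses. The one from 18913148 to 18921897 had 8.66 and 8.30 kb in the E14.5 libraries and 8.75 kb in both of E12.5. The one from 95861903 to 95870029 had 8.13 and 7.91 kb, against 7.88 and 8.13 kb in E12.5, and the highest rank percentile of any named region in E14.5 replicate 1, 98.5. Chromosome 12 also held 2. The region from 28020789 to 28029022 had 7.57 and 7.47 kb at E14.5 and slightly more, 8.12 and 8.01 kb, in the E12.5 libraries. The region from 25811469 to 25819279 had 7.75 and 7.19 kb at E14.5.

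The remaining 2 were shorter and lay on chromosome 9 (42586874 to 42594086) and chromosome 4 (153851715 to 153859569), with 6.88 to 7.70 kb in the E14.5 libraries. The latter was the weakest of the 10 by rank, at the 68.7th and 67.0th percentile. It was also the only one with a peak in an adult library, of 0.585 kb in enterocyte replicate 2. All 10 had peaks in both E12.5 libraries.

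Rank for rank by the smaller of 2 values, the longest gained regions were shorter than the longest losses. In all 10 gained regions that value was of ISC replicate 1, which had the least covered length of the 4 libraries compared. The 10 gained regions split by whether enterocytes also had them. The longest, on chromosome 12 from 78292926 to 78301524, carried 8.29 and 8.60 kb in the ISC libraries, and the enterocyte libraries had 4.46 and 6.61 kb. On chromosome 15 from 85528583 to 85536811, ISC had 7.75 and 8.23 kb and enterocytes 8.03 and 8.00 kb. On chromosome 4 from 148157859 to 148165969, the enterocyte libraries both had 8.11 kb, and the ISC libraries 7.31 and 8.11 kb. In these last 2 the adult groups overlapped. On chromosome 7, from 120393410 to 120401967, the enterocyte values were lower, 2.59 and 3.60 kb, than the 6.80 and 8.56 kb of ISC.

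The other 6 of the 10 had little or no mark outside the stem cells. The regions on chromosome 17 from 16136314 to 16145204 (7.90 and 8.89 kb in the ISC libraries) and on chromosome 6 from 137387605 to 137395035 (7.29 and 7.43 kb) had no peak in any other library. The same held for those on chromosome 1 (135812032 to 135820313), chromosome 19 (24677231 to 24685524) and chromosome 17 (14385950 to 14393664), with 6.70 to 8.29 kb in ISC. The region on chromosome 1 from 169198268 to 169206223 had 7.05 and 7.96 kb in ISC, and a short peak in E12.5 replicate 2 (0.251 kb) and in enterocyte replicate 2 (0.271 kb). In all, 4 of the 10 were in both enterocyte libraries and none was in both E12.5 libraries. Rank percentiles of the 10 ran from 71.6 to 97.5, the highest being that of the region on chromosome 4 in ISC replicate 2.

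**Figure D2:**
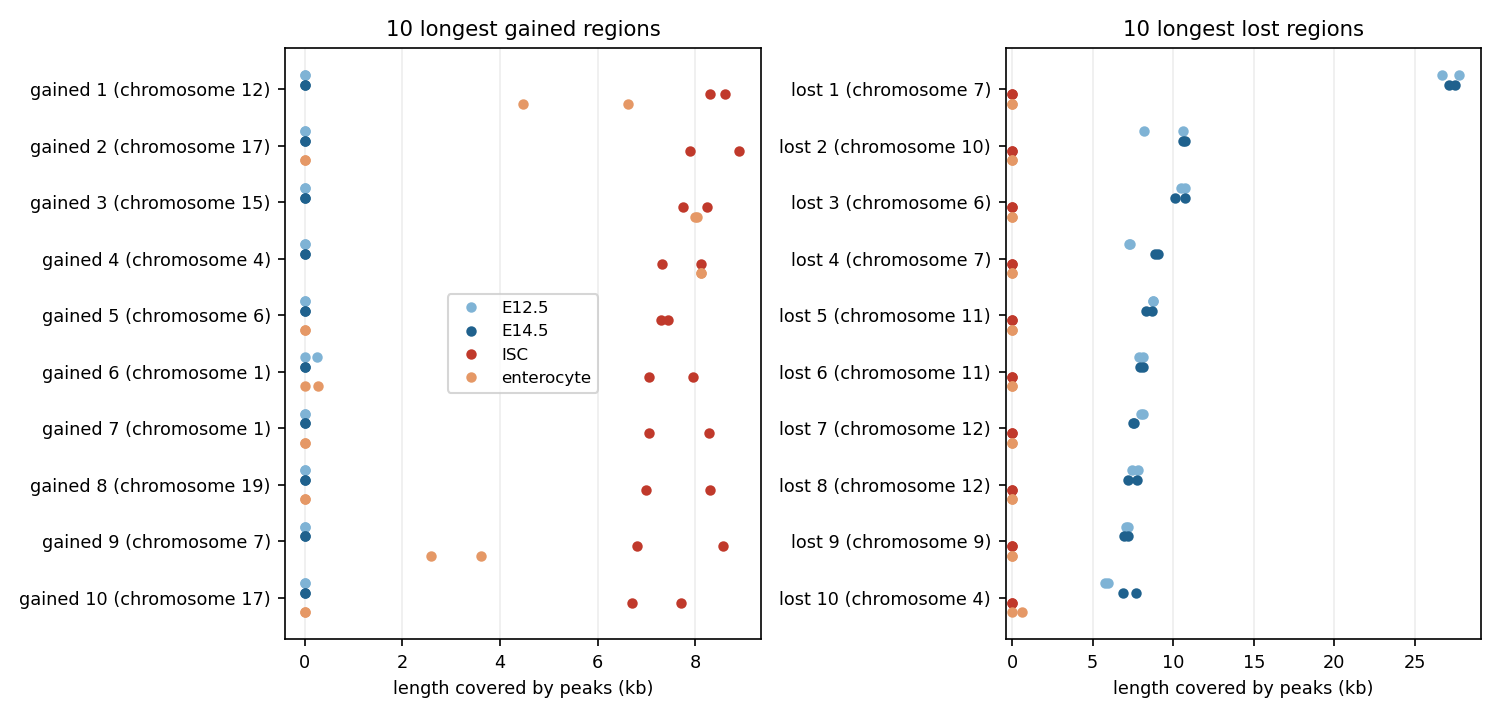
Length covered by peaks (kb) in each of the 8 libraries, 1 point per library, for the 10 longest gained (left) and the 10 longest lost regions (right). The embryonic points of every lost region lie at 5.74 kb or more, and 4 of the gained regions have enterocyte points above 2 kb in both libraries.

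The state of the members before E14.5 and after the stem cell stage was read from the E12.5 and enterocyte libraries. Most lost regions already had a peak at E12.5, and few had one in enterocytes. A peak was found in 63.3 ± 10.1% of them at E12.5 (mean ± SD over the 2 libraries, n = 2) and in 4.44 ± 0.399% in enterocytes. Regions shared by all 4 libraries had 83.3 ± 4.65% and 71.6 ± 3.02%. The lists differed in size, with 46710 and 52510 peaks in E12.5 replicates 1 and 2 and 36439 and 35614 in those of enterocytes. Of the lost regions, 56.2% had a peak in E12.5 replicate 1 and 70.5% in replicate 2. The part of list size in these shares, and in those of the gained regions below, was not tested. Both E12.5 libraries had 54.7% of the lost regions, and 25.4% had a peak in no library other than the 2 of E14.5. The enterocyte share was 9.00% when the lost class was set without ISC replicate 2 and 2.90% when a peak had to cover 50% of a region.

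Gained regions were rarely present at E12.5, with 4.04 ± 2.33%, and 34.1 ± 1.01% of them had a peak in enterocytes. Of the 6331, 56.8% had a peak in no library other than the 2 of ISC, and 28.2% had one in both enterocyte libraries and no E12.5 library. The E12.5 share was 7.50% when the gained class was set without E14.5 replicate 1, 2.25% with peaks of a −log10 q of at least 10 and 1.60% when a peak had to cover 50% of a region. ISC and enterocytes both came from adult males of the same reporter line by one described preparation, so cell lineage, age and preparation cannot be told apart for regions that they share.

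Longer members were found more often in the neighbouring stage. Among lost regions under 500 bp, 40.9% had a peak in both E12.5 libraries, and this share was 61.2%, 76.5% and 92.3% in the next length classes. All 30 lost regions of 5000 bp and over had one. Among gained regions, presence in both enterocyte libraries went from 21.4% under 500 bp to 47.6% from 2000 bp to under 5000 bp and 17 of 29 (58.6%) at 5000 bp and over. The other direction did not follow length: lost regions had both enterocyte libraries in 2.84 to 4.46% of cases in every class, and gained regions had both E12.5 libraries in at most 2.35%. A longer region offers more bases in which a peak can fall, and its part in these shares was not tested.

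**Figure D3:**
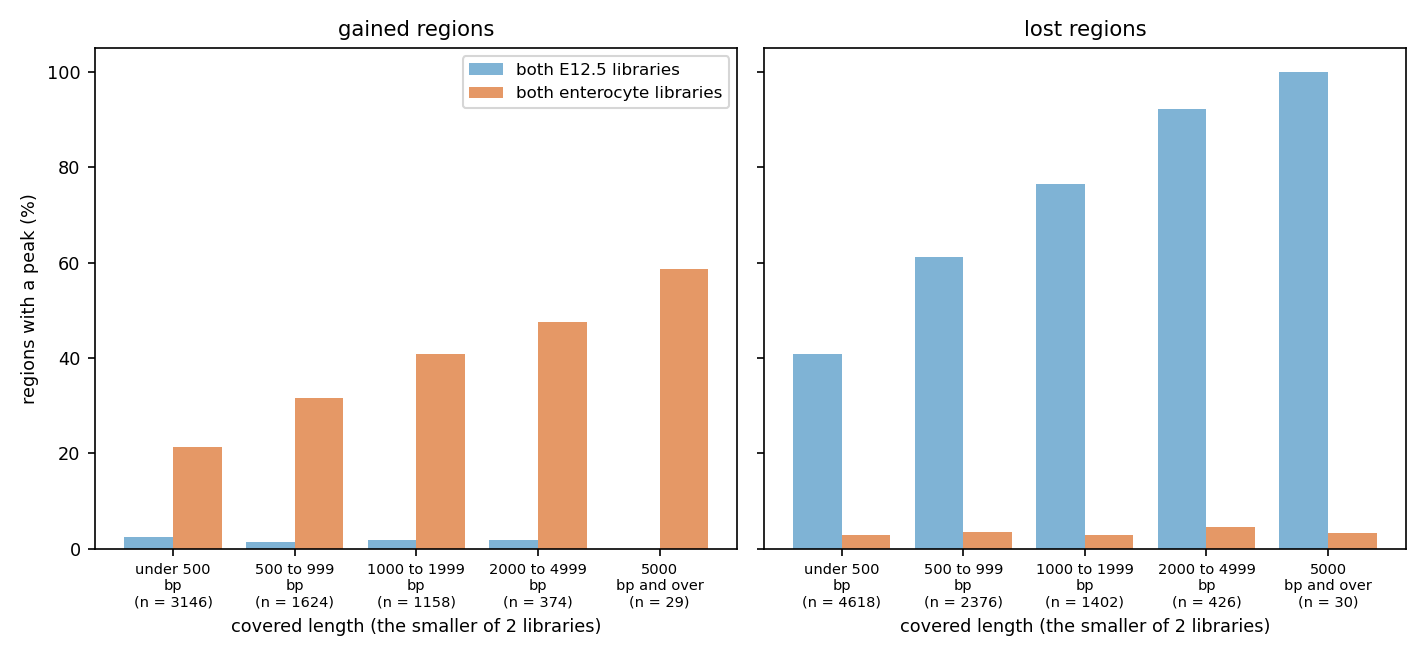
Share of gained (left) and lost regions (right) with a peak in both E12.5 or both enterocyte libraries (vertical axis, %), by covered length (horizontal axis, with the number of regions). The E12.5 bars of the lost regions climb from 40.9 to 100%, and the enterocyte bars of the gained regions from 21.4 to 58.6%.

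A peak that is merely longer or shorter does not enter the gained or lost class, so covered length was also compared in fixed windows of 20 kb. Lengths were scaled to the total of each library, 500 bp were added, and log2 values were fitted with limma over all 8 libraries. Of 30733 windows, 5107 (16.6%) had more and 6658 (21.7%) less covered length in ISC at a Benjamini-Hochberg adjusted p under 0.05. Fitted on the ISC and E14.5 libraries alone, 4009 windows had more and 5294 less. These windows use the same peak lists as the gained and lost classes: a window whose length lies mostly in members had to differ, and one covered in ISC alone passed the filter of 2 libraries with a peak through the group where it is high. The named windows, which had 0 to 0.242 kb in each library of the lower group, are therefore given as a description, with no test. Their differences are on this log2 scale, which depends on the added 500 bp.

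The windows with the largest rises went from next to nothing in the embryo to more than 8 kb in each ISC library, and they differed in enterocytes. On chromosome 17 from 15940001 to 15960000, ISC had 15.5 ± 1.38 kb (SD, n = 2), the E14.5 libraries none and the enterocyte libraries 1.41 and 0.844 kb (difference 4.79). On chromosome 15 from 85500001 to 85520000, a window beside the gained region of that chromosome, ISC had 18.1 ± 1.25 kb, E14.5 had 0.226 and 0 kb, and enterocytes kept 13.3 and 12.8 kb (difference 4.78). On chromosome 14 from 80400001 to 80420000, ISC had 15.6 ± 1.48 kb, E14.5 had 0 and 0.207 kb, and enterocytes had none (difference 4.56). These 3 windows thus had a similar length in ISC and very unequal lengths in enterocytes.

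The other 3 windows had no peak in any embryonic library. They lay on chromosome 8 (108260001 to 108280000), chromosome 6 (137380001 to 137400000) and chromosome 2 (126380001 to 126400000), with 8.95 to 15.6 kb in the ISC libraries. The one on chromosome 6 contains the fifth longest gained region and had no enterocyte peak, whereas the other two had 2.31 to 3.75 kb in enterocytes.

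The largest falls ended at or near 0 in both adult cell types. The window on chromosome 7 from 149740001 to 149760000, inside the longest lost region, was covered almost fully at E14.5, with 20.0 and 19.9 kb, and had no adult peak (difference −5.18). The window on that chromosome from 149840001 to 149860000 had 13.9 and 13.7 kb at E14.5, 10.2 and 10.5 kb in the E12.5 libraries and no adult peak. On chromosome 9 from 114440001 to 114460000, coverage was 15.3 and 11.8 kb at E14.5, and 0 and 0.242 kb in ISC (difference −4.42). It had 11.0 and 14.4 kb in the E12.5 libraries. The remaining 3, on chromosome 8 (35000001 to 35020000), chromosome 11 (11720001 to 11740000) and chromosome 9 (66920001 to 66940000), had 10.9 to 14.3 kb at E14.5, 9.18 to 14.9 kb in the E12.5 libraries and no adult peak.

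**Figure D4:**
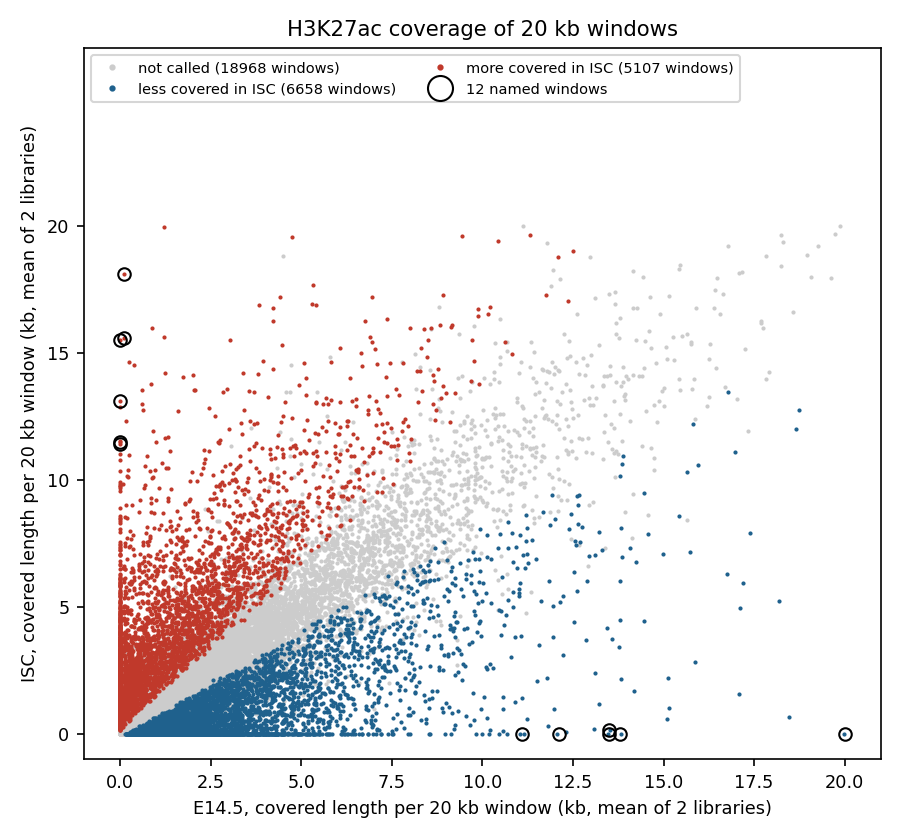
Covered length per 20 kb window (kb, mean of the 2 libraries) at E14.5 (horizontal axis) and in ISC (vertical axis), 1 point per window, with the 5107 windows called as more covered in ISC in red, the 6658 called as less covered in blue and the 12 named windows circled. The circled windows lie along the 2 axes, at 20.0 kb or less in one group and near 0 in the other.

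Regions present in all 4 libraries also changed in width. Of the 21876, limma on log2 covered length, scaled to library totals, called 3250 (14.9%) as wider and 2933 (13.4%) as narrower in ISC at an adjusted p under 0.05. Without scaling the counts were 1592 wider and 592 narrower, so that 72.9% rather than 52.6% of the calls were wider. The balance turned towards narrower regions with peaks of a −log10 q of at least 10 (1458 wider, 1622 narrower) and without ISC replicate 1 (3346 wider, 3897 narrower). The counts fell to 1816 and 1306 without E14.5 replicate 1 and to 1533 and 1106 without replicate 2. This fit took for most regions a spread shared by regions of like width. Its smallest p-values and the SE of 0.22 given below therefore rest little on the 2 libraries of the region itself. As a description on covered length without scaling, 1074 regions were at least 2 times as wide in both ISC libraries as in either E14.5 library, and 531 were the reverse. Without a minimum ratio, both ISC libraries lay above both E14.5 libraries in 6237 regions and below them in 5402.

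The strongest narrowing lay in part beside losses described above. On chromosome 9 from 114452080 to 114475187, the E14.5 libraries had 22.9 and 22.7 kb and the ISC libraries 0.222 and 1.14 kb (log2 difference −5.54 ± 0.81, SE, limma adjusted p = 0.0413). That call ended among regions of at least 1000 bp (adjusted p = 0.0535). On chromosome 7 from 149707725 to 149730038, beside the longest lost region, 22.1 and 21.9 kb stood against 0.795 and 1.33 kb in ISC and 0.979 and 0.761 kb in enterocytes. On chromosome 6, the region from 49158247 to 49168059 adjoins the lost one and had 9.66 and 9.65 kb against 0.357 and 0.953 kb. On chromosome 10, the region from 44236982 to 44250603 lies near the lost one and had 13.5 and 13.2 kb against 0.699 and 1.27 kb. Short peaks were thus left in ISC beside stretches that had none. A region on chromosome 15 from 66806430 to 66813568 differed from these before E14.5: it had 7.14 and 7.03 kb at E14.5 but only 0.862 and 2.12 kb in the E12.5 libraries, and 0.230 and 1.00 kb in ISC.

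The strongest widening turned short embryonic peaks into long stretches. On chromosome 10 from 94573607 to 94585946, the E14.5 libraries had 0.683 and 0.329 kb and the ISC libraries 9.96 and 12.3 kb (log2 difference 4.51 ± 0.22, SE). That difference was 4.94 without E14.5 replicate 1 and 4.08 without E14.5 replicate 2. On chromosome 9 from 57786230 to 57805575, the E14.5 libraries had 0.897 and 0.773 kb against 18.0 and 19.3 kb in ISC (difference 4.45 ± 0.22). The others were on chromosome 8 (13694449 to 13700574), chromosome 11 (95687565 to 95699802) and chromosome 6 (147702782 to 147710689), with 0.220 to 0.784 kb at E14.5 and 5.26 to 12.2 kb in ISC. Enterocytes had peaks in all 5, of 1.02 to 9.84 kb, below the ISC values of the same region, so the groups did not overlap.

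**Figure D5:**
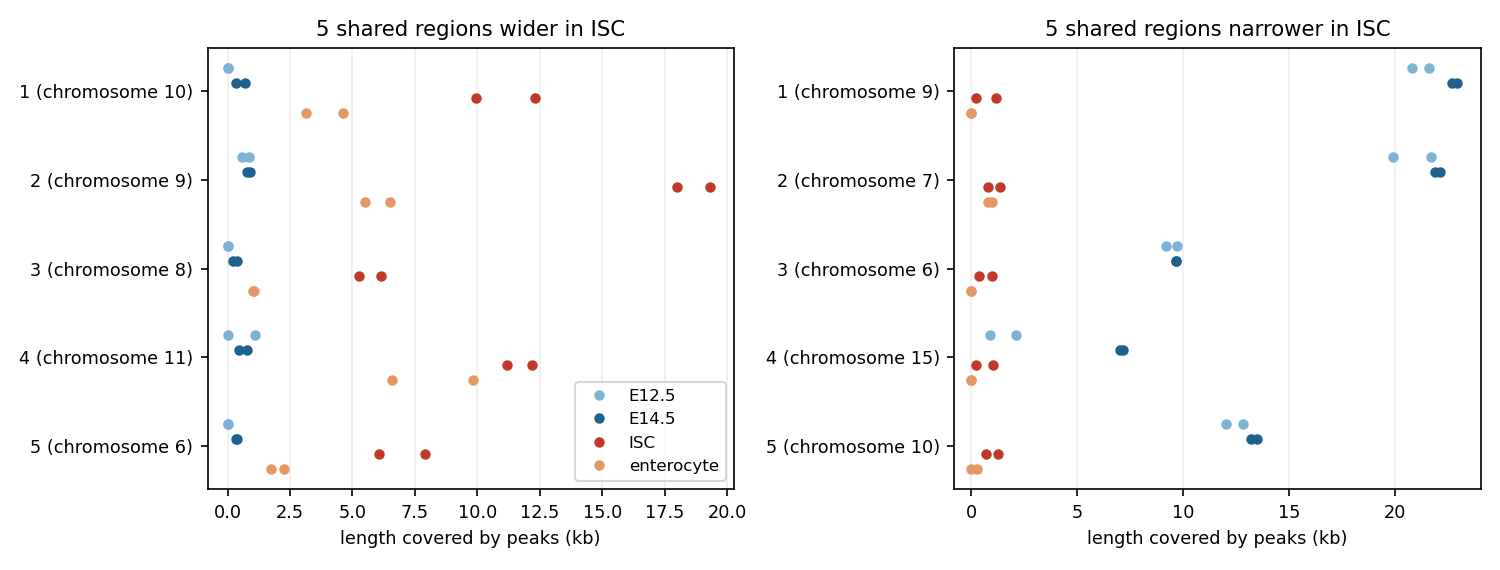
Length covered by peaks (kb, horizontal axis) in each of the 8 libraries, 1 point per library, for the 5 most widened (left) and 5 most narrowed (right) of the regions present in all 4 ISC and E14.5 libraries. On the left, enterocyte points lie between the E14.5 and ISC points; on the right, E12.5 points lie near those of E14.5 except on chromosome 15.

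Gained regions lay closer to regions shared by all 4 libraries than lost regions did, given here as a description without a test. Of the gained regions 37.1% were within 5 kb of a shared region, and of the lost regions 24.1%. Over 50 kb from any shared region were 16.3% of the gained and 31.5% of the lost. For regions in neither class nor in all 4 libraries these shares were 42.5% and 16.6%. Another region of the same class lay within 20 kb of 52.0% of gained and 58.3% of lost regions, whereas 9.62% and 7.58% had one of the opposite class. No such share was computed for other regions, so whether members lie closer together than peaks in general was not tested. Lost regions followed each other in 638 runs of 3 or more neighbouring regions with nothing of another class between them, and gained regions in 220 such runs. The lost class is also the larger, and its part in these numbers was not tested.

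The longest run of losses held 13 regions over 236.3 kb on chromosome 2 (49668458 to 49904787), with 12.3 and 11.3 kb of peaks at E14.5 and 9.21 and 11.5 kb in the E12.5 libraries. No adult library had a peak in these 13 regions. The next held 12 regions over 735.2 kb on chromosome 3 (80905315 to 81640549), also without an adult peak in the regions themselves. Lengths of each run were summed over its regions, and E12.5 or enterocyte peaks in the gaps between them were not counted. The third held 9 on chromosome 1 (69480614 to 69514112). The longest run of gains, 8 regions over 88.5 kb on chromosome 6 from 94829420 to 94917963, had 12.3 and 18.3 kb in ISC and 0.307 kb in 1 enterocyte library. The next, 7 regions on chromosome 5 (146840716 to 146955459), also had 6.76 and 6.87 kb in enterocytes. The third, 6 regions on chromosome 10 (128034974 to 128051086), had 5.84 and 3.94 kb in enterocytes and 0.388 kb in 1 E12.5 library.

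Members were found on each autosome and on the X chromosome, and none among the 16 merged regions of the Y chromosome or the 1 of the mitochondrial genome. Over the 19 autosomes and the X chromosome, gained regions were 8.08 to 11.0% and lost regions 9.76 to 15.9% of the merged regions of a chromosome. Losses outnumbered gains on 19 of these 20 chromosomes. The exception was chromosome 19, with 224 gained and 211 lost. All chromosomes share the same 4 peak lists, so they are not separate observations of the excess of losses. On the X chromosome 137 regions were gained and 188 lost, 10.3% and 14.1% of its regions, within the range of the autosomes.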

How the data were processed

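The 8 ChIP libraries and their 8 inputs came from 4 groups of 2. Build mm9 and the programs bcl2fastq 1.8.4, Bowtie 1.1.2, MACS2 and SAMtools 1.2 are named in the submitters' processing notes. Per the file headers, MACS 2.1.0.20140616 called peaks in each library against its own input at a q-value threshold of 0.05. Each deposited list gives peak positions and, by the authors, a pileup signal, −log10 p and q and a fold enrichment ratio per peak. These scores were used only to rank or filter within a list. No counts of reads per region were used, so precision rests on 2 libraries a group.

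Peaks were merged and covered length summed in Python 3.11.15 (pandas 2.3.3). Windows in which 2 or more libraries had a peak, and regions in all 4 libraries, were fitted with limma 3.58.1 (R 4.3.3; eBayes with trend and robust). Windows had 4 group means (4 residual degrees of freedom), and regions the ISC and E14.5 libraries alone (2). The scripts were tested on simulated data: of 200 changed among 30733 windows, limma recovered 65.0% of 2-fold and 100.0% of 4-fold changes. The simulation gave every window the same spread and placed changes only in windows above the median covered length. These shares therefore check the scripts and need not hold in the real libraries.

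The members and lists were chosen with earlier results of these data known. By rule, the text names the 10 longest gained and lost regions, 6 windows each way at least 40 kb apart whose groups did not overlap, 5 shared regions each way of at least 2000 bp in the wider group, and 3 runs each way. The planned gene lists were not counted: they required an annotation of mm9, and the gene table at hand is on GRCm38.p6. No coordinates were converted, and no gene name is given for a region. The series describes the libraries as biological duplicates. The p-values rest on the spread between duplicates, pooled over the 4 groups for windows and over regions of like width for most shared regions. In a window, a group without a peak in either library adds a spread of 0, which comes from absent calls and is not a measured variation.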

Additional observations from a re-analysis of the deposited data

How the results depend on the processing

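With −log10 q of at least 10, 3602 regions were gained and 3840 lost, 2.25% of gained regions had an E12.5 peak, 32.7% of gained and 3.95% of lost regions had an enterocyte peak, 3163 windows rose and 3560 fell, and 1458 shared regions were wider and 1622 narrower, the reverse balance. Lost per gained was then 1.07, and 1.16 with equal numbers of peaks. Merging within 1 kb gave 4201 gained regions. When a peak had to cover 50% of a region, gained regions had E12.5 and enterocyte peaks in 1.60% and 24.1%, and lost regions in 52.3% and 2.90%. Without scaling, 1592 shared regions were wider and 592 narrower. For these the cause was not tested.

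With a library left out, gained regions ranged from 6699 to 19372, lost regions from 8905 to 16807 and lost per gained from 0.460 (without ISC replicate 1, the reverse balance) to 2.51. Gained regions with E12.5 and enterocyte peaks ranged from 3.83 to 7.50% and from 23.2 to 34.8%, lost ones from 51.7 to 63.3% and from 4.25 to 9.00%. Rising windows ranged from 3477 to 4533 and falling ones from 4770 to 6058, wider regions from 1533 to 4581 and narrower ones from 1106 to 3897. The arm left with 1 library is then assumed to vary like the others.

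With the replicate block, 4808 windows rose and 6277 fell, and 2459 shared regions were wider and 2149 narrower. The labels share only numbers. Deviations of same-numbered ISC and E14.5 libraries correlated at −0.15 over windows and −0.13 over shared regions. With the ISC numbers exchanged, an alternative chosen after seeing the data, the counts were 4842, 6208, 3669 and 3474. Of the named regions, all 20 met the rule in each of the 60 values computed with a −log10 q of at least 10, with 44594 peaks per library and with 50% cover. They were not recomputed with a library left out or with merging within 1 kb. By position, the lost region on chromosome 6 (start 49168141) would leave its class on such merging. The narrowed region that ends at 49168059, with peaks in both ISC libraries, would then be joined to it. All named windows kept their direction where they were fitted. Where they were fitted, all widened regions kept their call and direction. So did the narrowed ones, except that on chromosome 9 named above. Its limma adjusted p was 0.0535 among regions of at least 1000 bp and 0.127 with the exchanged numbers. With a −log10 q of at least 10, only the widened region on chromosome 9 and the narrowed ones on chromosomes 7 and 10 had a value. The planned count of gene lists was not run.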
